A study of Oryza sativa with 8 samples.

Results

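Open chromatin of Nipponbare (Nip, a japonica rice) was compared between heat stress (HS) and Normal seedlings by ATAC-seq. In this assay the Tn5 transposase cuts DNA that is not wrapped around nucleosomes, and a peak is a stretch where such cuts are concentrated. The 4 Nip peak lists, 2 HS and 2 Normal, were taken from a series of 8 lists, and peaks on chromosomes 1 to 12 were used. These were 133963 of the 246695 peaks of the series. Normal 1 held 31399 peaks, Normal 2 held 29542, HS 1 held 36279 and HS 2 held 36743. All libraries came from the aerial parts of 3-week-old seedlings of 1 cultivar grown in culture solution, and the study describes the 2 libraries of a group as biological replicates. The HS seedlings were kept at 45 °C for 36 h at a relative humidity above 80% and a light intensity of 60 to 80 µmol per square metre and second, whereas growth took place at 800 µmol. For Normal seedlings, the light and humidity over the same hours are not given, so heat cannot be told apart from low light and humid air. The aerial parts hold many cell types, so a higher peak can mean more cells with an open site or a more open site in each cell, and these cannot be told apart.

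In rice, as in other plants, accessible chromatin is found mostly at promoters and other regulatory DNA near genes, where transcription factors displace nucleosomes. Genes are dense on the chromosome arms, and the DNA around the centromeres is rich in transposable elements and packed into heterochromatin. Plants respond to heat through heat shock transcription factors that bind the promoters of chaperone genes, and in Arabidopsis heat is known to loosen some silenced chromatin. The comparison therefore asked where along the chromosomes peaks were added under HS, how closely they lay, how wide they were, and which sites rose or fell in rank within their list.

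Read counts are not part of the lists, and sequencing depth is therefore unknown. As a stand-in, a background rate, the chance pileup of fragments at a base, was recovered from the peak values of each list. It was 5.31 in Normal 1, 5.21 in Normal 2, 6.79 in HS 1 and 6.85 in HS 2. It moved with the condition and its part in the differences between HS and Normal was not tested. Where peaks were limited to equal numbers per list, only the list length was made equal. The limit of at least 4 times this rate left 20631 and 19990 peaks in Normal and 24476 and 24745 in HS. Neither limit separates the background rate from the condition. No pair of Nip lists shared a peak with the same interval and the same value. With 2 libraries against 2, the exact two-sided permutation test has 6 assignments and cannot go below p = 0.333. A measure per library whose groups do not overlap gives this p, so differences were read against the spread between replicates.

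Under HS, peak numbers rose by a larger proportion in dense windows than in sparse ones. The chromosomes were divided into 374 windows of 1 Mb, and the windows were ranked by their mean peak number over the 4 lists and split into quintiles. This ranking uses the HS lists too, so a window that gained peaks could move to a denser quintile, which adds to the differences between quintiles. In the sparsest quintile, the mean number of peaks per window was 45.4 in Normal and 51.6 in HS, a gain of 13.6%. In the second quintile the gain was 9.44%. It was 20.5% in the third and 22.0% in the fourth. In the densest quintile, windows held 119.6 peaks in Normal and 150.3 in HS, a gain of 25.7%. The peak number was higher in both HS lists than in both Normal lists in 285 windows, or 76.2%, and lower in 4 (1.07%).

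As shares of each list, the sparsest quintile held 11.5% of the peaks of Normal 1, 10.9% of Normal 2, 10.5% of HS 1 and 10.8% of HS 2. The groups did not overlap, but HS 2 lay close to Normal 2. The densest quintile held 29.3% of Normal 1, 29.8% of Normal 2, 31.1% of HS 1 and 30.8% of HS 2. The difference in the sparsest quintile was -0.58 percentage points. It was -0.32 without Normal 1, and -0.34 with overlapping groups when the quintiles were set on the Normal lists alone, an alternative chosen after the data were seen. With quintiles set on Normal alone, the mean share of the fourth was 24.2% in Normal and 25.0% in HS. That of the densest was 29.7% and 30.6%, so the densest did not stand out from the fourth. Among the 25000 peaks of highest value in each list the difference in the sparsest quintile was larger, at -1.68, and among the highest 10000 it was -1.61. With quintiles of the full lists, the densest quintile then held 30.7% and 30.9% of the 10000 peaks of Normal 1 and 2 and 34.5% of those of both HS lists. The difference was thus present at equal list length, but it did not widen steadily towards the strongest peaks. At ranks 1 to 1000 by value, the densest quintile held a mean of 32.4% in Normal and 35.1% in HS. At ranks 25001 to 29000 it held 23.6% and 30.5%.

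**Figure D1:**
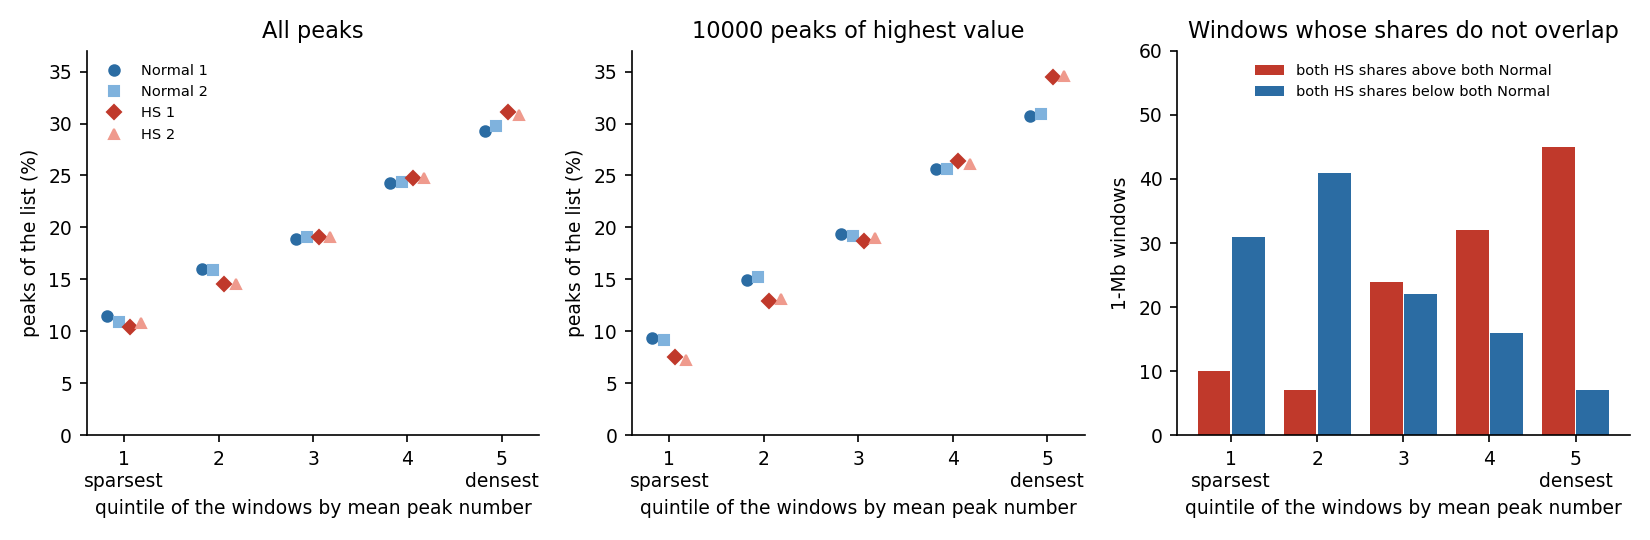
Share of each Nip list (percent, y axis) in the quintiles of the 1-Mb windows, from the sparsest to the densest (x axis), for all peaks and for the 10000 of highest value, with 1 point per library, and the number of windows whose shares did not overlap between HS and Normal. In the densest quintile both HS points lie above both Normal points, at 34.5% against 30.7% and 30.9% among the 10000 peaks, and the bars cross from 31 lower and 10 higher windows to 7 lower and 45 higher.

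The unevenness of the windows was summarised by the Gini coefficient, which is 0 where every window holds the same number of peaks and nears 1 where a few hold all. It was 0.187 in Normal 1, 0.196 in Normal 2, 0.217 in HS 1 and 0.212 in HS 2. The mean rose from 0.192 ± 0.00656 (SD, n = 2) in Normal to 0.214 ± 0.00379 (SD, n = 2) in HS, a difference larger than the spread between replicates (exact p = 0.333, the smallest possible). Limited to the 10000 peaks of highest value, it was 0.248 in Normal and 0.299 in HS. The peaks of HS lists were therefore less evenly spread at each list length examined.

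In single windows, the share of the list was higher in both HS libraries in 118 of 374 windows (31.6%) and lower in both in 117 (31.3%). The balance held for the full lists only: with the 25000 peaks of highest value 113 windows were higher and 162 lower, with 10000 peaks 100 and 170, and with peaks reaching 4 times the background 107 and 149. In the full lists the numbers were unequal across the quintiles. In the densest quintile 45 windows were higher and 7 lower, and in the second quintile 7 were higher and 41 lower. Position along the chromosome differed too. Of the 48 windows lying 4 to 6 Mb from a chromosome end, 24 gained share and 9 lost it, while of the 101 windows at 10 to 15 Mb, 19 gained and 48 lost. The terminal 2 Mb of the chromosomes had 11 windows with a higher and 15 with a lower share, so the tips did not have more gains than losses.

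Whole chromosomes also differed. Chromosome 3, with 99.5 peaks per window in Normal and 124.4 in HS, gained 25.0%, and 19 of its 37 windows rose in share against 5 that fell. On chromosome 8 the gain was 14.4%, with 5 windows higher and 12 lower of 28. On chromosomes 11 and 12, the sparsest of the 12 with 60.7 and 60.9 peaks per window in Normal, the gains were 17.1% and 16.9%. A chromosome gained or lost share by little, since chromosome 3 held 12.1% of the peaks of both Normal lists and 12.7% and 12.6% of the HS lists.

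The windows with the largest gain in share, among those with a mean of at least 20 peaks and no overlap, were spread over 5 chromosomes. The largest was chr5:6000001-7000000, with 56 and 51 peaks in Normal and 89 and 88 in HS, or a log2 ratio of the shares of 0.47. The window chr11:1000001-2000000 held 65 and 61 peaks in Normal and 92 and 102 in HS. The window chr3:29000001-30000000, in the densest quintile, went from 106 and 99 to 150 and 156 peaks. The remaining windows of this group, chr4:15000001-16000000 and chr12:21000001-22000000, belonged to the sparsest quintile, so a large relative gain was not limited to dense windows.

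The windows with the largest loss of share were interior. The first, chr6:14000001-15000000, held 74 and 68 peaks in Normal and 60 and 61 in HS, a log2 ratio of the shares of -0.49, and the number itself fell without overlap. On the same chromosome, chr6:16000001-17000000 held 79 and 75 in Normal and 64 and 73 in HS. On chromosome 1, chr1:17000001-18000000 went from 70 and 69 peaks to 58 and 68, and chr1:19000001-20000000 from 76 and 65 to 65 and 60. The last of them, chr4:9000001-10000000, held 20 to 26 peaks in every list. These 5 windows lay 9.5 to 19.5 Mb from the nearest chromosome end.

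Neighbouring peaks lay closer together under HS by their median spacing, and in the full lists the numbers rose most at distances of 500 bp to 5 kb. The spacing is the number of bases between a peak and the next on the same chromosome. Its median was 6611 bp in Normal 1, 6824 bp in Normal 2, 5375 bp in HS 1 and 5320 bp in HS 2. The lower and upper quartiles fell by about the same proportion as the median, the lower from a mean of 2657 bp to 2081 bp and the upper from 14561 bp to 11402 bp. These 3 quartiles thus moved alike. The relative spread changed little, with a coefficient of variation of 1.35 in Normal and 1.39 in HS. The HS lists held 19.8% more peaks, which by itself shortens spacings, and the mean spacing fell by 17.7%. With the 25000 peaks of highest value in each list, the median fell by 6.68%.

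Classes of spacing, each without its upper limit, moved in different directions. Spacings of 1 to 5 kb made up 28.0% of Normal 1, 27.6% of Normal 2, 34.2% of HS 1 and 34.5% of HS 2, and their mean number rose by 48.0%. Those of 500 to 1000 bp rose by 46.7% in number and those of 200 to 500 bp by 29.3%. Spacings of 5 to 20 kb were more numerous by 9.40% but made up a smaller share, 39.9% against 43.7%. The long spacings became rarer in the full lists, and those of 20 to 100 kb fell in number by 9.76% and those of 100 kb or more from 113 and 136 in Normal to 94 and 77 in HS. At equal list length this pattern was different. With the 25000 peaks of highest value, spacings of 100 kb or more rose from 251 and 244 in Normal to 302 and 322 in HS, those of 500 to 1000 bp changed by 1.54% and those of 1 to 5 kb rose by 10.6%. With 10000 peaks, the mean number of spacings of 500 to 1000 bp went from 274 to 218 and that of 1 to 5 kb from 1260 to 1219.

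The very short spacings also became rarer. Those below 200 bp numbered 306 in Normal 1, 236 in Normal 2, 215 in HS 1 and 197 in HS 2, although the HS lists were longer. The shortest spacing of a list was 153 and 157 bp in Normal and 166 bp in both HS lists, and the shortest peak was 150 and 154 bp in Normal and 163 bp in HS. These minima moved with the condition, and their part in the loss of the shortest spacings was not tested.

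Whether close pairs became more or less frequent depended on the length of the list. Spacings below 1 kb were 11.9% in Normal 1, 11.3% in Normal 2, 13.0% in HS 1 and 13.2% in HS 2, a rise of 1.50 percentage points. Among the 25000 peaks of highest value in each list, they were 9.59% and 9.64% in Normal and 8.90% and 8.97% in HS, so the direction was reversed. Among the highest 10000 they were 4.44% and 4.12% in Normal and 3.08% and 3.10% in HS. Among peaks reaching 4 times the background, where lists again differ in length, they were 8.07% in Normal and 8.84% in HS. The excess of close pairs in the HS lists was therefore not present among equal numbers of strong peaks. The fall of the median spacing kept its direction, from 7722 bp to 7206 bp at 25000 peaks.

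**Figure D2:**
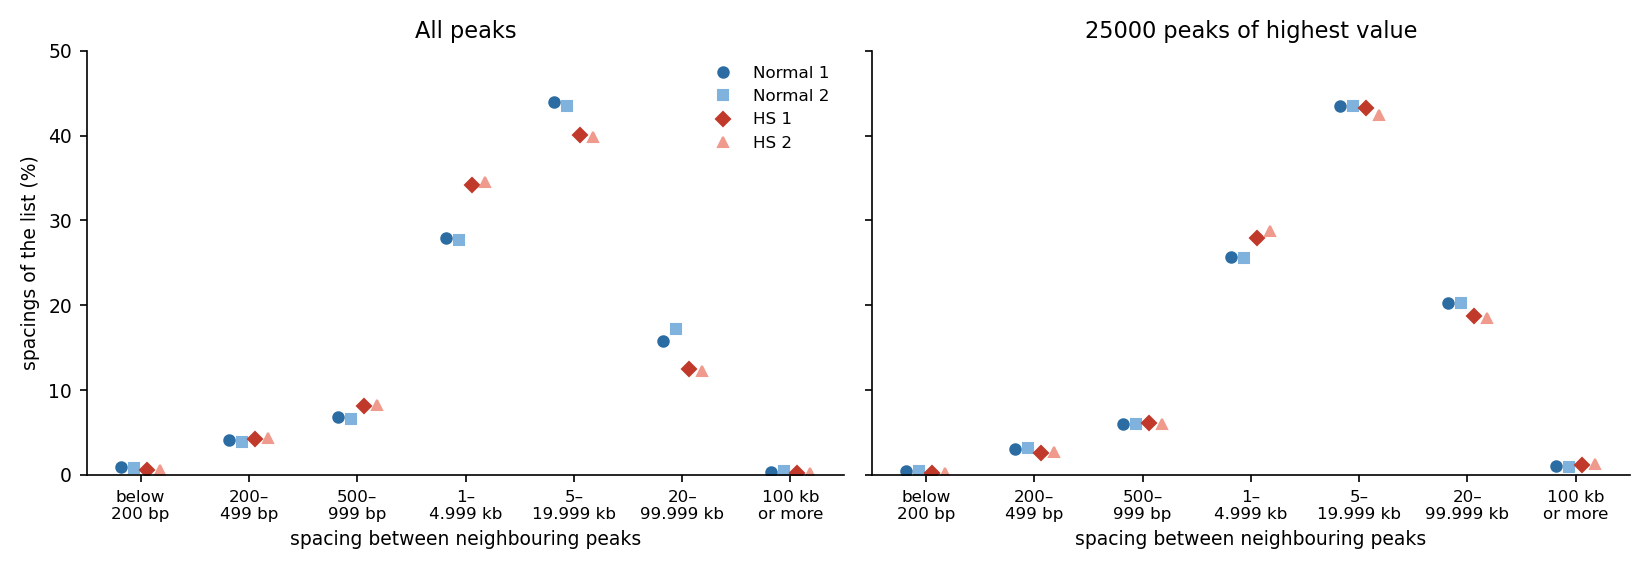
Share of the spacings of each Nip list (percent, y axis) by class of distance between neighbouring peaks (x axis), for all peaks and for the 25000 of highest value, with 1 point per library. With all peaks the HS points lie above the Normal points at 500 bp to 5 kb and below them from 5 kb on, and with equal numbers of peaks the gap at 1 to 5 kb narrows to 28.3% against 25.6%.

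The longest stretches without a peak were on a few chromosomes. The longest of all was in Normal 1, chr6:18256427-18798646, of 542.2 kb. The second, of 374.2 kb, was chr3:13368293-13742499 in Normal 2, and Normal 1 had a stretch of 218.3 kb ending at nearly the same base. The third, chr12:20426577-20761569 of 335 kb in Normal 2, overlapped the longest in HS 1, of 327.6 kb, and one of 274.2 kb in Normal 1. In HS 2 the longest was 208.2 kb, and it lay inside the chromosome 6 stretch of Normal 1.

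Peaks were wider under HS at every rank, and classes of width are given without their upper limit. Peaks below 200 bp made up 15.9% of Normal 1, 14.3% of Normal 2, 9.36% of HS 1 and 9.47% of HS 2, and their mean number fell from 4617 to 3438 despite the longer lists. Together with those of 200 to 300 bp, peaks below 300 bp fell from 40.9% and 39.0% in Normal to 30.7% and 31.1% in HS. Those of 300 to 500 bp held 32.2% to 33.1% of every full list. Among the 10000 peaks of highest value in each list, this class was 35.44% and 35.33% in Normal and 26.95% and 27.81% in HS. In the full lists the 500 to 1000 bp class rose from 23.9% and 25.1% to 31.1% and 30.8%, which is 51.5% more peaks.

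The broadest classes rose most in proportion. Peaks of 1000 bp or more were 2.96% of Normal 1, 3.08% of Normal 2, 5.03% of HS 1 and 4.92% of HS 2. The difference of 1.95 percentage points was larger than the spread of 0.0814 (SD, n = 2) within Normal and 0.0815 within HS. Peaks of 2000 bp or more were few, with a mean of 11 per Normal list and 33 per HS list. The widest were a domain at chr1:25870311-25873383 in Normal 1, 3073 bp, found at almost the same limits in Normal 2 with 2779 bp, and a domain at chr3:9273593-9276469 in HS 1, 2877 bp, with 2897 bp in HS 2. Each condition thus had its own widest peak, the same in both replicates.

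At equal rank the difference was smallest for the strongest peaks. Each list was ordered by its value, a −log10 p that measures how far a peak stands above the background, and rank 1 is the highest. Among ranks 1 to 1000, the median width was 661 and 670 bp in Normal and 720 and 712 bp in HS, 7.59% more. Among ranks 5001 to 10000 it was 452 and 457 bp against 550 and 548 bp, 20.8% more. At ranks 25001 to 29000 it was 233 and 223 bp against 316 and 308 bp, 36.8% more. Since the lists differ in length, the same was done by deciles of each list. The width was then 9.48% higher in the top decile, 10.2% in the lowest, and 13.2% to 16.3% in the 8 deciles between them.

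Width and rank went together in every list, and a given width ranked lower under HS. Peaks of 500 to 1000 bp had a median percentile of 76.3 in Normal 1, 75.3 in Normal 2, 72.7 in HS 1 and 72.6 in HS 2, where 100 is the top of the list. Of the peaks of 1000 to 2000 bp, 35.0% and 37.2% stood in the top decile of their Normal list and 28.9% and 28.8% in that of their HS list. No peak below 200 bp stood in the top decile of either HS list, and 0.10% and 0.0472% did in Normal. A broad peak was therefore less exceptional within an HS list.

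**Figure D3:**
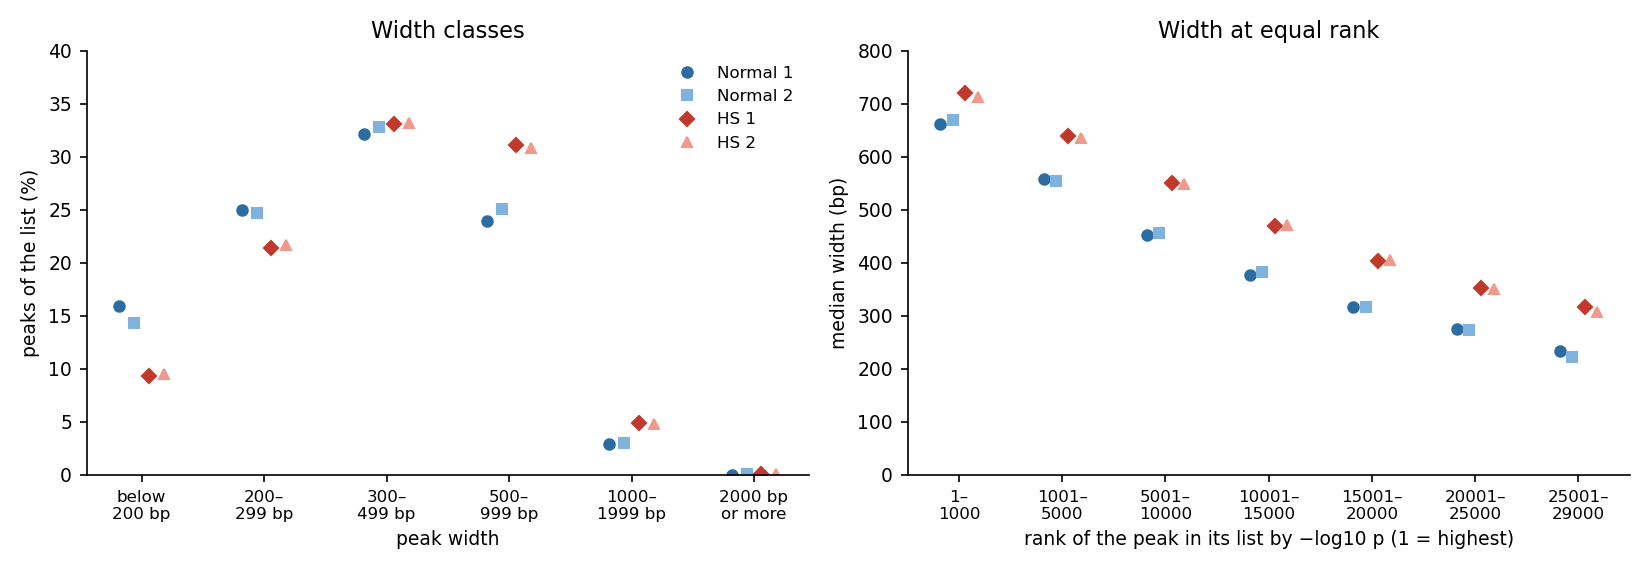
Share of each Nip list by width class (percent, y axis of the left panel) and median width in bp by rank of −log10 p within the list (right panel), with 1 point per library. Every HS point of the right panel lies above the Normal points of the same ranks, from 720 and 712 bp against 661 and 670 bp at ranks 1 to 1000 to 316 and 308 bp against 233 and 223 bp at ranks 25001 to 29000.

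The place of the strong peaks along the chromosomes also differed. Of ranks 1001 to 5000, 29.9% and 30.0% lay in the densest quintile of the windows in Normal, and 35.9% and 35.2% in HS. This band had the largest gap down to rank 25000. At ranks 1 to 1000 the shares were 32.0% and 32.7% in Normal and 35.3% and 34.8% in HS. At ranks 15001 to 20000 they were 31.9% and 32.3% against 32.5% and 33.6%. Ranks 1001 to 5000 held 9.05% and 9.63% in the sparsest quintile in Normal, and 6.59% and 6.74% in HS. Within the lists, peaks of the sparsest quintile had a median percentile of 37.6 and 40.3 in Normal and 34.2 and 32.7 in HS. Peaks of the densest quintile stood at 53.2 and 51.9 in Normal and 54.8 and 55.2 in HS. In the third quintile they stood at 50.7 in both Normal lists and at 49.4 and 49.7 in HS, and in the quintiles on either side of it the conditions overlapped.

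Rank shifts were then followed at single sites. Peaks of the 4 lists that overlapped or touched were merged into 49606 sites, and 20632 of them (41.6%) held a peak in every list. Such shared sites held 68.1% of the peaks of Normal 1, 72.2% of Normal 2, 58.0% of HS 1 and 57.4% of HS 2. The remaining peaks, including those found in 1 condition only, have no rank in every list and are not part of the counts that follow. At 19170 shared sites (92.9%) each list had exactly 1 peak. The value of a site was ranked among the shared sites of its library and is given as a percentile, with 100 the strongest.

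Order was kept better between replicates than between conditions. Spearman's rho over the 20632 sites, as a description, was 0.897 for the Normal pair, 0.927 for the HS pair and 0.741 to 0.750 across conditions. Of the 2064 sites in the top decile of a library, the replicate kept 84.1% in Normal and 84.4% in HS, and a library of the other condition kept 70.3% to 71.2%. The median absolute difference in percentile was 6.98 for the Normal pair, 6.05 for the HS pair and 11.1 to 11.5 across conditions. Most sites in the top decile of a library were therefore also in the top decile under the other condition, but fewer than between replicates.

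By limma on normal scores of the ranks, 2158 of 20632 shared sites (10.5%) were higher in rank under HS and 2091 (10.1%) lower at a Benjamini-Hochberg adjusted p below 0.05. Ranks within a list sum to the same total, so a balance of both directions is built into the scale and says nothing of openness as a whole. The called sites that rose had a median percentile of 33.3 in Normal and 74.5 in HS. Those that fell went from 72.5 to 35.0. Without overlap between conditions, 5927 sites (28.7%) were higher and 6421 (31.1%) lower. The calls depended on the number of HS libraries: fewer sites were called in either direction without HS 1 or without HS 2, over 21321 and 21310 sites. Without Normal 1 or without Normal 2, over 22520 and 23240 sites, more were called higher and fewer lower. Each of these fits uses the sites shared by its 3 lists and assumes that the lone library varies like the others. The numbers called in them are therefore not given.

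The direction of the calls varied with the density of peaks around the site. In the densest quintile of the windows 988 of 6688 shared sites (14.8%) were called higher and 528 (7.89%) lower, against 10.5% and 10.1% over all sites. In the fourth quintile 11.6% were higher and 9.28% lower. In the third 8.07% were higher and 9.92% lower, and in the second 5.22% and 14.0%. In the sparsest quintile, 82 of 1759 (4.66%) were higher and 266 (15.1%) lower. The order was the same with quintiles set on the Normal lists alone, where 14.3% against 8.26% were called in the densest quintile and 4.79% against 14.6% in the sparsest. Site calls were not compared with the change of their own window, and neighbouring sites share a window, so they are not independent of each other.

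**Figure D4:**
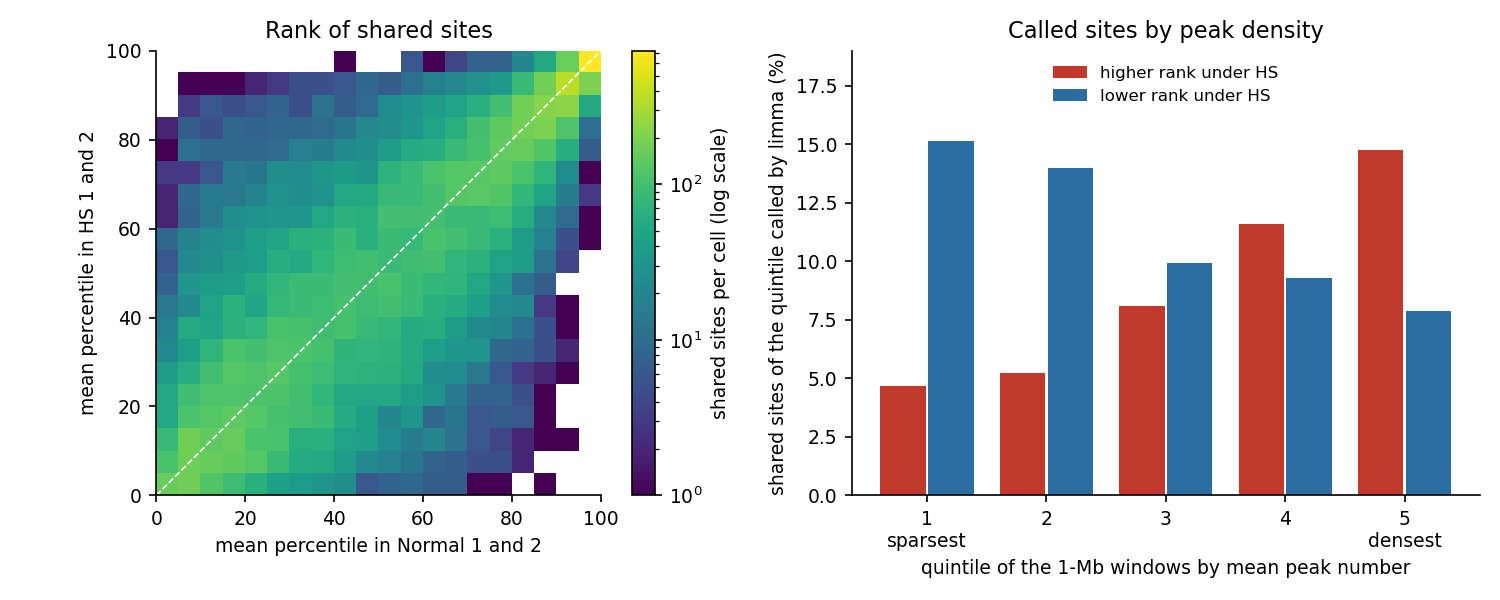
Mean percentile of the 20632 shared sites in the HS libraries (y axis) against that in the Normal libraries (x axis), with the number of sites per cell as colour on a log scale, and the percentage of shared sites called higher or lower in rank by limma in each quintile of the windows. The top right corner holds the most sites, and the called shares cross from 4.66% higher and 15.1% lower in the sparsest quintile to 14.8% higher and 7.89% lower in the densest.

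Chromosomes 1 to 4 had more sites called higher than lower, and chromosomes 6 to 12 the opposite. On chromosome 3, 348 of 2623 shared sites (13.3%) were higher and 222 (8.46%) lower, and on chromosome 1, 13.1% and 8.55%. On chromosome 11, 60 of 1072 (5.60%) were higher and 137 (12.8%) lower, and on chromosome 12, 6.80% and 12.3%. Chromosome 5 lay between, with 178 higher and 175 lower. Distance from the chromosome end had a smaller range, with 13.3% higher and 9.10% lower at 6 to 8 Mb, 9.83% and 11.7% at 10 to 15 Mb, and 8.47% and 10.2% within 2 Mb of the end.

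The called shares varied less with isolation than with density. Shared sites within 200 to 500 bp of another merged site were higher in 8.58% and lower in 13.9%, and those 5 to 20 kb from the nearest in 10.5% and 8.26%. Where adjacent shared sites less than 1 kb apart were both called, 73 of 90 pairs moved in the same direction. At 1 to 5 kb this was 154 of 249 pairs, at 5 to 20 kb 278 of 378, and at 20 kb or more 158 of 219. Pairs moving together were thus the majority in each class, with no steady fall with distance.

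The 6 sites with the largest upward gap, the lowest HS percentile minus the highest Normal percentile, went from the lowest 11.0% of shared sites to the top 20%. The first, chr3:10570250-10570961, stood at percentile 6.03 in Normal 1, 11.0 in Normal 2, 91.8 in HS 1 and 96.0 in HS 2, with a −log10 p of 5.73, 6.63, 76.5 and 102.5. Its rank score rose by 2.96 ± 0.25 (SE; limma adjusted p = 1.5e-09). Its peak was 357 and 168 bp wide in Normal and 632 and 712 bp in HS. The site thus passed from the lower part of the shared sites in Normal to the top decile in both HS libraries.

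The second, chr4:25644838-25645992, stood at 2.07 and 2.26 in Normal and at 80.2 and 84.6 in HS, while its width grew from 203 and 210 bp to 932 and 1155 bp. The third, chr4:20451175-20451987, went from 5.12 and 2.26 to 83.2 and 82.7, but its widths lay closer together, with 481 and 737 bp in Normal and 797 and 793 bp in HS. Both lay in the densest quintile of the windows. The other three were chr6:6709448-6710164, chr6:3063796-3064315 and chr3:874794-875689, with percentiles of at most 9.06 in Normal and at least 83.7 in HS. All 6 passed limma's test, with adjusted p from 1.5e-09 to 1.19e-07. Sites were named for their gaps in these same ranks, so the p-values of named sites, here and below, are no separate support. These p-values also rest on a variance that limma moderates over all shared sites.

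The 6 largest downward gaps were 66.6 to 76.1 percentile points and the upward ones 75.3 to 80.8, so the 2 ranges overlapped. The first, chr5:20601290-20602101, stood at 91.0 in Normal 1, 81.2 in Normal 2, 5.16 in HS 1 and 1.57 in HS 2, with a −log10 p of 57.6, 35.2, 7.22 and 5.31. Its rank score fell by 3.00 ± 0.31 (SE; limma adjusted p = 3.9e-08). At chr3:6282680-6283537 the percentile went from 79.6 and 76.3 to 0.373 and 0.218, and the −log10 p from 35.9 and 29.9 to 3.98 and 3.72. This site was among the weakest that HS libraries still held.

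The next, chr10:4734306-4734850, lay in the sparsest quintile and went from 93.1 and 90.9 to 17.1 and 10.9. The sites chr7:16469047-16469730 and chr5:22721393-22721892 stood at 76.0 to 79.4 in Normal and 5.45 to 9.67 in HS. The last, chr1:25870311-25873383, is the widest peak of both Normal lists, and it broke up under HS. It was 1 peak of 3073 bp in Normal 1 and of 2779 bp in Normal 2, and 3 peaks with 1583 bp in HS 1 and 2 with 1308 bp in HS 2. Its percentile went from 73.9 and 84.1 to 7.23 and 6.89.

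**Figure D5:**
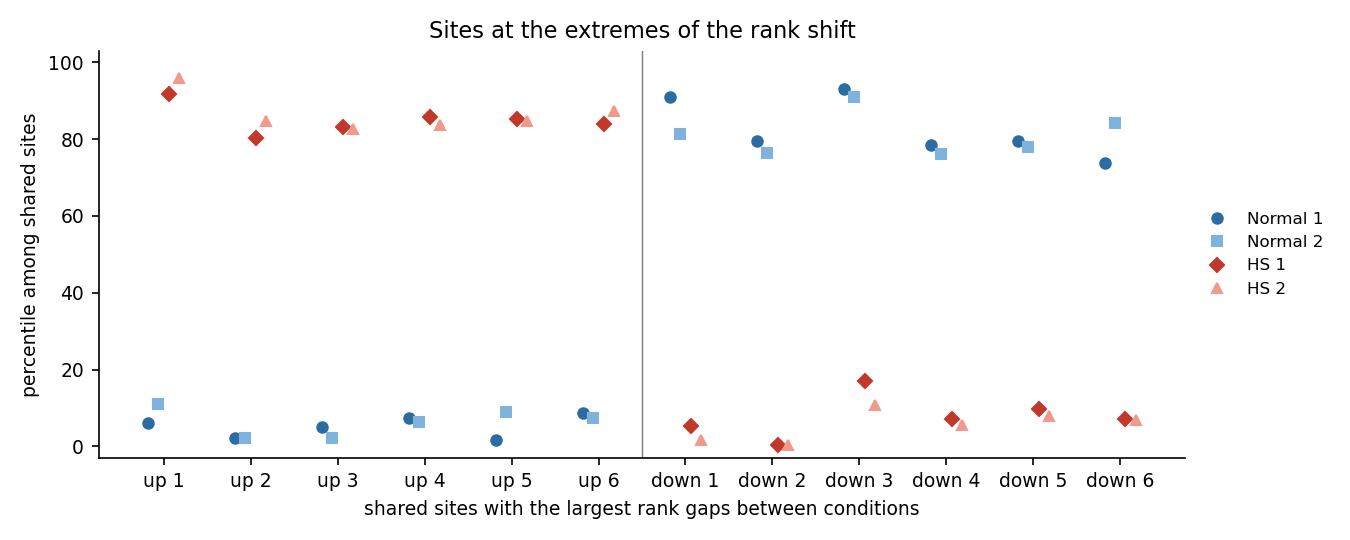
Percentile among the 20632 shared sites (y axis) of the 6 sites with the largest upward and the 6 with the largest downward gap between conditions (x axis, in the order of the text), with 1 point per library. All Normal points of the first group are at or below 11.0 and all HS points at or above 80.2, and in the second group the Normal points are at or above 73.9 and the HS points at or below 17.1.

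Shared sites were wider under HS in general. The median width of a shared site was 436 bp in Normal 1, 433 bp in Normal 2, 519 bp in HS 1 and 522 bp in HS 2, and the median log2 ratio of HS to Normal width was 0.21, or 1.16-fold. At 9046 sites (43.8%) both HS widths were above both Normal widths, and at 2003 (9.71%) both were below. At 3015 sites (14.6%) both HS peaks reached beyond both Normal peaks at both ends, and at 324 (1.57%) they lay inside at both ends. At 43.5% of the sites they reached beyond at 1 end only.

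No single site passed limma's test for width, with 0 wider (0%) and 0 narrower (0%) at an adjusted p below 0.05 and 0.11 as the smallest adjusted p. At an unadjusted p below 0.05, 3331 sites (16.1%) were wider and 442 (2.14%) narrower. More sites were thus wider than narrower, but none could be singled out by this test with 2 libraries per group. On ranks of width, where a general shift cancels, 1539 sites (7.46%) were wider and 1370 (6.64%) narrower at this unadjusted p.

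Width and rank shifted together. Sites called higher in rank had a median log2 width ratio of 0.53, and 78.2% of them were wider without overlap. Sites called lower had a median of -0.11, with 35.7% narrower and 14.5% wider without overlap. Sites not called had a median of 0.21, so widening did not need a rise in rank. Value and width come from the same pileup, so these are not independent measures. By density, the median log2 ratio was 0.16 in the sparsest quintile and 0.23 in the densest.

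The sites with the largest gaps in width were these. At chr1:36675798-36678014 the peak was 197 and 228 bp wide in Normal and 1739 and 2217 bp in HS, and at chr4:28479345-28480620 it was 193 and 162 bp in Normal and 1275 and 1268 bp in HS. At chr8:22978204-22979463 it went from 186 and 192 bp to 1223 and 1230 bp. At chr2:31243036-31244928, 212 and 227 bp in Normal became 2 peaks with 1721 and 1387 bp in HS, while its percentile stayed between 8.49 and 12.3 in all 4 libraries. A site could thus widen without a rise in rank.

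The largest gaps in the other direction were smaller, at 1.54 to 1.89 on the log2 scale against 2.61 to 2.93 for widening. At chr8:8154592-8155426 the width went from 770 and 835 bp to 164 and 208 bp, at chr3:4129064-4130453 from 1096 and 874 bp to 176 and 263 bp, and at chr11:16170429-16171395 from 815 and 967 bp to 280 and 178 bp. The strongest of the 4, chr7:22250995-22252902, shrank from 1775 and 1693 bp to 515 and 478 bp and stood at 94.4 and 94.8 in Normal and 81.5 and 79.7 in HS. This site thus remained strong while it lost most of its width.

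Fewer shared sites held 2 or more peaks under HS. Shared sites with 2 or more peaks numbered 730 in Normal 1, 678 in Normal 2, 409 in HS 1 and 437 in HS 2. At 146 sites both Normal lists had 2 or more peaks and both HS lists 1, and at 46 the opposite was seen. Sites with 1 peak in place of several under HS thus outnumbered the opposite kind, and both were few among the 20632. The shortest spacing between called peaks was 153 and 157 bp in Normal and 166 bp in both HS lists, and its part in these numbers was not tested.

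The changes were set against those of 93-11, an indica rice given the same treatment, by permuting the condition within each cultivar over 36 assignments, with a smallest possible two-sided p of 0.0556. Peaks of 1000 bp or more rose by 1.95 percentage points in Nip and went from 0.95% to 0.42% in 93-11, a difference between the cultivars of 2.48 (exact p = 0.0556). The percentage of spacings below 1 kb rose by 1.50 points in Nip and fell by 1.50 in 93-11, a difference of 3.00 (exact p = 0.0556), which turned to -2.47 (exact p = 0.0556) with the 20000 peaks of highest value in each list. The Gini coefficient rose by 0.0227 in Nip and went from 0.164 to 0.154 in 93-11, a difference of 0.0331 (exact p = 0.111), or 0.0958 (exact p = 0.0556) at 20000 peaks. The background rate moved in opposite directions in the 2 cultivars too, to 4.41 and 4.66 in the HS libraries of 93-11 from 6.11 and 6.67 in Normal, so cultivar and background cannot be told apart in these differences.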

How the data were processed

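Per the labels and the study's methods, ATAC-seq libraries were sequenced as paired-end reads. The methods name Cutadapt, Bowtie2, SAMtools and Picard, whereas the submitters' processing notes name BWA 0.7.10-r789, SAMtools 0.1.19, deepTools 2.0 and MACS2 2.1.1, so the aligner is uncertain, and the genome build is not given in the sources used here. MACS2 peaks (adjusted p 0.05) were called per library. The value the authors deposited per peak has no header and was read as a −log10 p. It rises with depth, so it was used as a rank within a list. A Poisson background rate came from the 12 commonest values of a list.

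Groups came from sample titles. Library summaries were compared by exact permutation (Python 3.11.15, scipy 1.17.1). Shared sites were tested with limma 3.58.1 (R 4.3.3; trend and robust options) on normal scores of ranks and on log2 summed width, with Benjamini-Hochberg adjustment. A site's value was its highest peak value. The fit was run on simulated data with few changed sites, changes larger than those of most called sites, and independent noise. That run checks the code and does not test the calls made here. Named windows were the 5 highest and 5 lowest share ratios, and named sites the 6 largest rank gaps and 4 largest width gaps each way, beside the 3 longest spacings and the widest peak of each list. Members and lists were chosen with earlier results of these data known. A gene annotation was not used here, because the one at hand is of another build, so no genes are named and tissue markers were not examined.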

Additional observations from a re-analysis of the deposited data

Results flagged for a closer look

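In the full lists, HS and Normal differed in opposite directions in Nip and 93-11 for 2 measures. The difference between the cultivars in the change of the percentage of spacings below 1 kb was 3.00 percentage points, with all Nip HS libraries above and all 93-11 HS libraries below their Normal libraries (exact permutation p = 0.0556, the smallest 36 assignments can give). With the 20000 peaks of highest value per list both directions turned over, to -0.886 in Nip and 1.59 in 93-11, a difference of -2.47 (exact permutation p = 0.0556). For the percentage of peaks of 1000 bp or more, the difference between the cultivars in the full lists was 2.48 points (exact permutation p = 0.0556). A measure was flagged only where both cultivars separated without overlap in opposite directions. This rule fixes p at its minimum in the full lists, so the p adds no support. The background rate also moved in opposite directions in the 2 cultivars, so cultivar and background cannot be told apart here.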

How the results depend on the processing

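Of 106 alternative values for 16 results, 96 kept their direction and stayed on the same side of any threshold or within 1.5 times a count. Some of the 96 carry little weight. Joining peaks less than 100 bp apart could change nothing, since the shortest spacing of any Nip list was 153 bp. The counts of wider and narrower sites were 0 in the main fit and in every alternative. The rise of spacings below 1 kb in Nip reversed, to -0.678 percentage points with the 25000 and -1.19 with the 10000 peaks of highest value per list, and the difference from 93-11 reversed to -2.47 with 20000. The cause was not tested. With windows of 500 kb, HS shares were higher in 200 of 747 windows (26.8%) and lower in 214 (28.6%). With windows of 2 Mb they were higher in 69 of 188 (36.7%) and lower in 61 (32.4%). At 1 Mb these percentages were 31.6% and 31.3%, so they varied with the window size. Leaving out each replicate in turn gave 933 to 2375 shared sites with a higher rank and 1179 to 1841 with a lower rank under HS, and the lowest came without HS 1. With a replicate block, 2392 sites were higher and 2329 lower and none wider or narrower. The replicate numbers share no known batch, and the deviations of same-numbered libraries had a correlation of 0.0109 over sites. The planned comparison with genes was not run. Depth is unknown, and the exact tests of 2 against 2 libraries cannot reach 0.05.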
